A study of Mus musculus with 6 samples.

Results

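Expression of 10 genes of the WNT pathway was followed in hypothalamus RNA. The genes were those of the transcription factors Lef1, Tcf7l2 and Tcf7l1, the feedback gene Axin2, the ligand genes Wnt9b and Wnt3, and the genes of the secreted inhibitors Sfrp1, Sfrp2, Sfrp5 and Frzb. The members were chosen by name, with earlier results of the same comparison in view, from the 24513 genes of the count tables, and all 10 were found. They passed the filter on low counts that left 15894 genes for testing. RNA of hypothalamus was sequenced from 3 NS-DADm mice and 3 wild-type controls (WT), 1 library per mouse, and values below follow the replicate numbers. All 6 mice were C57BL/6 and 3 to 4 months old, and no treatment is named. The libraries held 24.2 M to 27.6 M reads on genes (M, 1e6). In NS-DADm mice, as known for this line and not from the labels, the corepressors NCOR1 and SMRT carry mutations, in every tissue, in the domain that binds and activates the histone deacetylase HDAC3. The labels name the hypothalamus but not the borders of the dissection.

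WNT ligands are secreted proteins that bind Frizzled receptors and LRP co-receptors at the cell surface. In the canonical branch this stops a destruction complex, built on AXIN and APC, from degrading beta-catenin, which then enters the nucleus and activates genes bound by the high mobility group factors LEF1, TCF7, TCF7L1 and TCF7L2. Secreted Frizzled-related proteins bind WNT proteins outside the cell and limit the signal. In adult mouse brain, Lef1 and Tcf7l2 are known for strong expression in the thalamus, which borders the hypothalamus. Tcf7l2 is also known in newly formed oligodendrocytes and Lef1 in brain endothelium.

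The 2 ligand members are neighbours on chromosome 11 and read away from each other. Wnt9b (positions 103727364 to 103749821, minus strand) and Wnt3 (103774150 to 103817957, plus strand) have start sites 24.4 kb apart. The sequences before the first start site of the members with the largest differences were shown because 4 of these genes were lower together and Sfrp5 went the other way. Each window runs from 250 bases before to 50 bases after a RefSeq start site (build GRCm38.p6, 5′ to 3′ on the gene's strand), and capitals mark a match to the motif bound by LEF1 and TCF proteins.
Lef1, chr3:131110047-131110346, plus strand: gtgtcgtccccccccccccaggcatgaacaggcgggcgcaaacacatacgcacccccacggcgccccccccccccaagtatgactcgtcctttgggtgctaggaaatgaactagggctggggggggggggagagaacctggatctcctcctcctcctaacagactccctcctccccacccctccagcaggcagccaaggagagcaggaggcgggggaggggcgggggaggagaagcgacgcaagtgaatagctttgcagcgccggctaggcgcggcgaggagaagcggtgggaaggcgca
Tcf7l2, chr19:55741560-55741859, plus strand: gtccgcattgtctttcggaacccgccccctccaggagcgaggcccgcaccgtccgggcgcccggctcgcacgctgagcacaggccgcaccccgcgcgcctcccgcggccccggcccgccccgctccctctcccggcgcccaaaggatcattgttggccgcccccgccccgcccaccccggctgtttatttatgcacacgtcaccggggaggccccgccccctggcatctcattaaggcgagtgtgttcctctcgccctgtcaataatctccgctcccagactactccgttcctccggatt
Wnt9b, chr11:103749772-103750071, minus strand: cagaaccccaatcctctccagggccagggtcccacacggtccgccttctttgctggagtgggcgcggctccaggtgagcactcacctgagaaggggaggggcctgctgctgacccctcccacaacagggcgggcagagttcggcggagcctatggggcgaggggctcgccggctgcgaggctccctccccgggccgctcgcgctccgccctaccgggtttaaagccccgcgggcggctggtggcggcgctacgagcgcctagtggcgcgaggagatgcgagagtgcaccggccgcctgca
Wnt3, chr11:103773925-103774224, plus strand: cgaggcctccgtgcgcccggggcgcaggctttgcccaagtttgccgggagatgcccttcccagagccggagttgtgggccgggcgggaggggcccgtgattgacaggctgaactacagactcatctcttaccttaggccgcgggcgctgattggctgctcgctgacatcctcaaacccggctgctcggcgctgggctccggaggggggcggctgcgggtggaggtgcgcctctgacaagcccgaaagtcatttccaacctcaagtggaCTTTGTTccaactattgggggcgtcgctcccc
Sfrp5, chr19:42202203-42202502, minus strand: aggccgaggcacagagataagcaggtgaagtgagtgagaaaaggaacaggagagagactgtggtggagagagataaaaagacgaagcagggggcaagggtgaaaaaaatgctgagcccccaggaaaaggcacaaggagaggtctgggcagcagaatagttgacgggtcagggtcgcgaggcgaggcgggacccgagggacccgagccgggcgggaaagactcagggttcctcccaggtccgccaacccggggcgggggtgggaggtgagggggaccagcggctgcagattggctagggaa

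The motif was searched as CTTTGAA or CTTTGAT or CTTTGTA or CTTTGTT on both strands, with no other motif sought. Of 32851 windows of this length in the RefSeq table, 5544 (16.9%) held a match. Start site windows were found for 9 of the 10 members, 13 windows in all, and 3 of these windows (23.1%) held 1 match each. The match in the window of Wnt3 was CTTTGTT, 18 bases after the start site. The other 2 lay at internal start sites, CTTTGTT 14 bases before the second start of Tcf7l2 (chr19:55895071-55895370) and CTTTGTA on the opposite strand near the fourth start of Lef1 (chr3:131156044-131156343). Read counts per gene do not say which start site was used. The windows shown were rich in G and C, from 61.3% at Sfrp5 to 71.7% at Wnt9b.

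Between the genotypes, 4 of the 10 members had lower levels in every NS-DADm library than in any WT library. These were Lef1, Tcf7l2, Wnt9b and Wnt3, at 1.70 to 2.52 times lower fitted levels. Sfrp5 was higher in every NS-DADm library. The other 5 members, Tcf7l1, Axin2, Sfrp1, Sfrp2 and Frzb, had overlapping groups and fitted log2 fold changes between -0.08 and 0.04. In a fit over all 15894 genes (edgeR quasi-likelihood test, Benjamini-Hochberg adjustment, called at an adjusted p under 0.05), Lef1 and Wnt9b were called lower, Sfrp5 was called higher and 7 members were not called. The call of Lef1 was lost without NS-DADm 2, those of Wnt9b and Sfrp5 when any of WT 3, NS-DADm 2 or NS-DADm 3 was left out, and that of Wnt9b also without NS-DADm 1. In the same fit 0.654% of all tested genes were called, 0.573% as lower and 0.0818% as higher. Libraries of the genotypes did not overlap for 16.8% of all tested genes, for 8.93% with NS-DADm lower and for 7.86% with NS-DADm higher. Because the members were picked with this comparison known, their calls and differences are a description and carry no test here. The members' median log2 fold change was -0.05, against 0.004 over all tested genes. In RNA of a whole tissue, fewer cells of a type cannot be told apart from less RNA per cell.

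**Figure D1:**
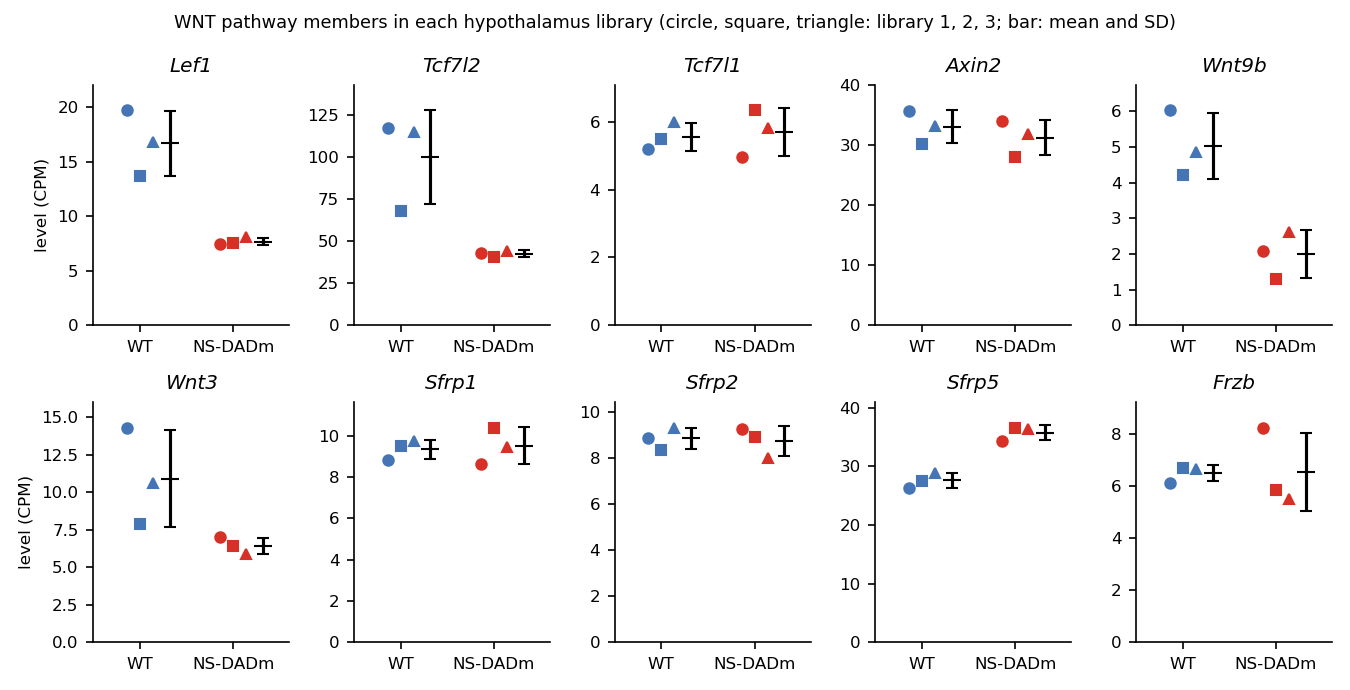
Level of each of the 10 members in CPM (reads per 1e6 reads on genes, scaled library sizes; axis from 0) in each library, blue for WT and red for NS-DADm, with the group mean and SD as black bars (n = 3). Lef1, Tcf7l2, Wnt9b and Wnt3 sit lower and Sfrp5 higher in NS-DADm without overlap, and the WT points of Tcf7l2 and Wnt3 spread most widely.

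Among the transcription factors, Lef1 (chromosome 3, 131110471 to 131224356), which recruits beta-catenin to target genes, stood at 19.7, 13.7 and 16.8 CPM across WT 1 to 3, against 7.45, 7.49 and 8.06 CPM across NS-DADm 1 to 3. The NS-DADm libraries lay close together and below the lowest WT library, WT 2. The means were 16.7 ± 2.98 and 7.67 ± 0.343 CPM (SD, n = 3 each), a log2 fold change of -1.12 ± 0.12 (SE) on 182 to 538 reads per library. Tcf7l2 (chromosome 19, 55741820 to 55933654), a related factor, stood at 117, 68.0 and 115 CPM across WT 1 to 3, against 43.1, 40.3 and 44.0 CPM across NS-DADm 1 to 3. WT 2 stood well below the other WT libraries and still above every NS-DADm library. The means were 100 ± 27.7 and 42.5 ± 1.93 CPM, a log2 fold change of -1.24 ± 0.24 (SE). The difference was the second largest of the members in size and was not called in the edgeR fit. It was called with DESeq2, with limma voom and without WT 2, where the log2 fold change was -1.45. The coefficient of variation of Tcf7l2 was 27.7% over WT and 4.55% over NS-DADm libraries, against medians of 6.95% and 5.33% over all tested genes.

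Tcf7l1, a family member that acts mainly as a repressor, did not follow Lef1 and Tcf7l2. It stood at 5.19, 5.48 and 5.98 CPM across WT 1 to 3, against 4.95, 6.34 and 5.82 CPM across NS-DADm 1 to 3, with overlapping groups and a log2 fold change of 0.04 ± 0.12 (SE). Axin2, a scaffold of the destruction complex that canonical WNT signalling induces in many tissues, stood at 35.6, 30.2 and 33.1 CPM across WT 1 to 3, against 33.9, 28 and 31.8 CPM across NS-DADm 1 to 3. Its groups overlapped at a log2 fold change of -0.08 ± 0.08 (SE).

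Of the ligands, Wnt9b stood at 6.03, 4.20 and 4.85 CPM across WT 1 to 3, against 2.09, 1.30 and 2.62 CPM across NS-DADm 1 to 3. The highest NS-DADm library lay below the lowest WT library. The means were 5.03 ± 0.928 and 2.0 ± 0.664 CPM, a log2 fold change of -1.33 ± 0.22 (SE) that rested on 115 to 165 reads per WT library and 36 to 69 per NS-DADm library. Its neighbour Wnt3 stood at 14.3, 7.86 and 10.6 CPM across WT 1 to 3, against 7.00, 6.41 and 5.90 CPM across NS-DADm 1 to 3. WT 2 came within 1 CPM of NS-DADm 1, so the groups were apart by little. The means were 10.9 ± 3.23 and 6.43 ± 0.551 CPM, a log2 fold change of -0.77 ± 0.20 (SE). Wnt3 was not called in the edgeR fit, and was called with DESeq2 and without WT 2. The protein-coding genes on either side of the ligand pair did not share its difference in size. Gosr2, a Golgi SNARE gene beside Wnt9b, had a mean of 115 CPM in WT against 116 CPM in NS-DADm mice (log2 0.02 ± 0.06 SE). Nsf, the vesicle fusion ATPase gene beside Wnt3, measured 909 and 852 CPM (log2 -0.09 ± 0.04 SE), and neither was called (edgeR, BH adjusted p = 0.95 and 0.43).

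A second such ligand pair on chromosome 11, Wnt9a and Wnt3a, belongs to the other pathway genes, whose list was made by role. Wnt9a stood at 7.57, 3.80 and 5.91 CPM across WT 1 to 3, against 3.48, 2.35 and 2.70 CPM across NS-DADm 1 to 3. Its groups did not overlap, and its log2 fold change of -1.02 ± 0.25 (SE) was not past the threshold (edgeR, BH adjusted p = 0.13). It was past it with DESeq2, and without WT 2. Wnt3a had 0 to 3 reads per library and was not tested.

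The secreted inhibitors divided into Sfrp5 and the rest. Sfrp5 (chromosome 19, 42197971 to 42202252) stood at 26.3, 27.5 and 28.9 CPM across WT 1 to 3, against 34.3, 36.6 and 36.3 CPM across NS-DADm 1 to 3. Every NS-DADm library lay above every WT library, and the spread within each genotype was small. The means were 27.6 ± 1.29 and 35.7 ± 1.27 CPM, 1.30-fold higher at a log2 fold change of 0.38 ± 0.06 (SE). Sfrp1 stood at 8.85, 9.50 and 9.73 CPM across WT 1 to 3, against 8.63, 10.4 and 9.47 CPM across NS-DADm 1 to 3 (log2 0.02 ± 0.10 SE). Sfrp2 stood at 8.88, 8.37 and 9.32 CPM across WT 1 to 3, against 9.29, 8.91 and 8.03 CPM across NS-DADm 1 to 3 (log2 -0.02 ± 0.10 SE). Both had interleaved groups. Frzb, also called Sfrp3, stood at 6.14, 6.69 and 6.67 CPM across WT 1 to 3, against 8.26, 5.86 and 5.51 CPM across NS-DADm 1 to 3. NS-DADm 1 was above and the other NS-DADm libraries below every WT library, at 6.5 ± 0.309 against 6.55 ± 1.5 CPM. Fitted values of Tcf7l1, Sfrp1, Sfrp2 and Frzb took either sign when single libraries were left out.

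Per length of exon, Sfrp5 and Tcf7l2 were the most abundant members in WT hypothalamus. Levels were 14.5 ± 0.685 CPM per kb for Sfrp5, 11.4 ± 3.16 for Tcf7l2, 5.99 ± 0.491 for Axin2 and 4.11 ± 0.221 for Sfrp2 (SD, n = 3). They were 3.55 ± 1.05 CPM per kb for Wnt3, 2.14 ± 0.104 for Sfrp1, 2.01 ± 0.0964 for Frzb and 1.90 ± 0.341 for Lef1, and 1.41 ± 0.102 for Tcf7l1 and 1.11 ± 0.205 for Wnt9b. WT ranges of neighbours in this order overlapped for Sfrp2 and Wnt3, for Sfrp1 and Frzb, for Frzb and Lef1, and for Tcf7l1 and Wnt9b. In NS-DADm mice Tcf7l2 lay below Axin2, at 4.84 ± 0.220 against 5.67 ± 0.543 CPM per kb, and Lef1 lay below Tcf7l1, at 0.872 ± 0.0388 against 1.45 ± 0.179. Wnt9b remained the lowest in mean, at 0.443 ± 0.147 CPM per kb. Lengths were the union of all GENCODE exons of a gene, so a long exon that is little used lowers its level.

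**Figure D2:**
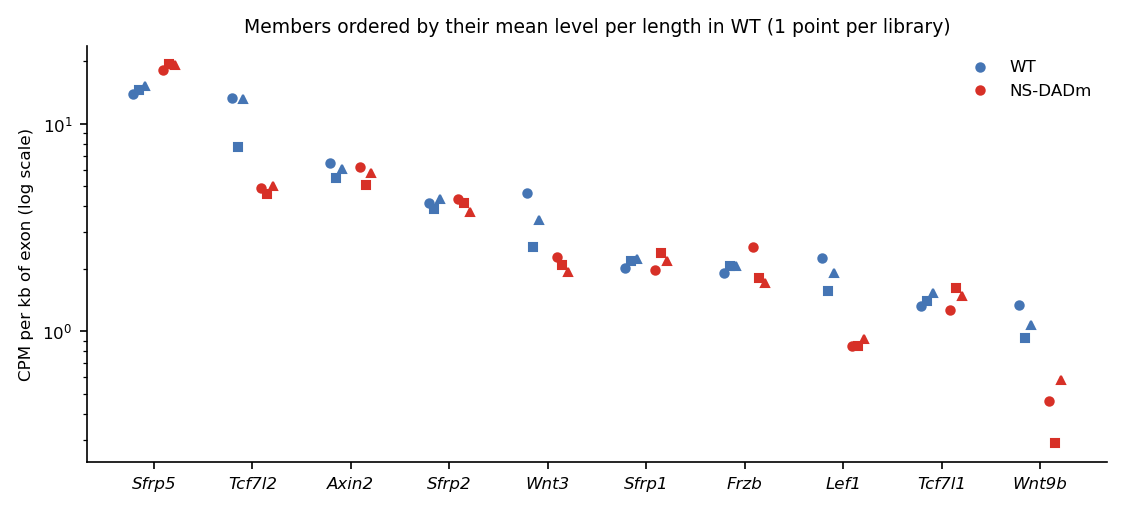
Level of each member per kb of exon (log axis) in each library, ordered by the WT mean, with blue points for WT and red for NS-DADm (circle, square and triangle for libraries 1, 2 and 3). Sfrp5 lies at 13.8 to 15.2 CPM per kb over WT and at 18.1 to 19.3 over NS-DADm libraries, and Wnt9b lies lowest at 0.288 to 0.580 in NS-DADm libraries.

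Across the rest of the pathway, 2 of 85 tested genes were past the threshold, and both fell in NS-DADm mice (edgeR, BH adjustment over all tested genes). Of all tested genes, 0.654% were past it, 0.573% as lower. The genotypes did not overlap for 10 of the 85 with NS-DADm lower and for 6 with NS-DADm higher. Over all tested genes these shares were 8.93% and 7.86%. The list held 90 genes sorted by role, 5 of which were too low to test. Fzd10 (chromosome 5, 128600844 to 128604093), a Frizzled receptor, stood at 6.11, 4.39 and 5.30 CPM across WT 1 to 3, against 2.82, 2.39 and 2.09 CPM across NS-DADm 1 to 3. It fell 2.17-fold, with a log2 fold change of -1.11 ± 0.16 SE (edgeR, BH adjusted p = 0.011). Wls (chromosome 3, 159839672 to 159938664), which carries WNT proteins to the cell surface, stood at 40.3, 34.1 and 39.6 CPM across WT 1 to 3, against 28.6, 29.8 and 28.9 CPM across NS-DADm 1 to 3. It fell 1.31-fold, with a log2 fold change of -0.39 ± 0.07 SE (edgeR, BH adjusted p = 0.031). In both genes every NS-DADm library lay below every WT library. Without WT 3, NS-DADm 2 or NS-DADm 3, 0 of the 85 genes were past the threshold. Without NS-DADm 1, Fzd10 stayed past it and Wls did not, and Apcdd1 and Dkk3 were added.

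No other pathway gene rose past the threshold, while 3 had an unadjusted p under 0.05 with a higher value and 12 with a lower one (edgeR). These 15 were 17.6% of the 85 genes, against 10.9% of all tested genes, and the median log2 fold change of the 85 was -0.027, against 0.004. DESeq2 called 5 lower and 1 higher, and limma voom 2 lower and 0 higher. The 4 genes that DESeq2 added were Wnt9a, Apcdd1 and Nkd1 on the lower side and Dkk3 on the higher side. Apcdd1, a membrane inhibitor of WNT reception, measured 24.2 ± 1.20 and 19.1 ± 1.75 CPM (log2 -0.34; edgeR, BH adjusted p = 0.077). Nkd1, a feedback inhibitor that binds Dishevelled, measured 19.0 ± 2.76 and 13.9 ± 1.14 CPM (log2 -0.45; edgeR, BH adjusted p = 0.086). Dkk3, a secreted protein of the Dickkopf family, measured 80.4 ± 5.90 and 99.7 ± 9.90 CPM (log2 0.31; edgeR, BH adjusted p = 0.11). In each of the 3 the genotypes did not overlap.

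By role, the 14 tested ligands other than the members had 10 negative and 4 positive log2 fold changes, with a median of -0.127 and 4 at an unadjusted p under 0.05, all lower. After Wnt9a, the smallest p was that of Wnt4 (log2 -0.35 ± 0.14 SE; edgeR, BH adjusted p = 0.36). Besides Wls, ligand secretion held Porcn, the enzyme that acylates WNT proteins, at 38.4 ± 1.66 and 37.7 ± 0.676 CPM. Of 15 receptors, Fzd10 was followed by the co-receptor Lrp6, at 72.2 ± 0.879 and 76.9 ± 2.14 CPM (log2 0.09; edgeR, BH adjusted p = 0.54). Among 9 genes of receptor turnover and R-spondins, Lgr6 and Rspo3 had log2 fold changes of -0.36 and -0.41 (edgeR, BH adjusted p = 0.33 each).

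Of the role groups, the core of the cascade had the smallest differences in median size. The 16 tested genes of the destruction complex and its transducers had log2 fold changes between -0.11 and 0.08, and their median size without regard to sign was 0.049, against 0.073 over all tested genes. Most of these genes were abundant, and genes matched for level were not set beside them. Ctnnb1, which encodes beta-catenin, averaged 652 ± 33.7 CPM in WT against 605 ± 8.73 CPM in NS-DADm mice (log2 -0.11 ± 0.05 SE; edgeR, BH adjusted p = 0.44). Apc, a scaffold of the complex, measured 358 ± 22.4 and 339 ± 10.7 CPM (log2 -0.08; edgeR, BH adjusted p = 0.65). Of 13 nuclear partners, the corepressor genes Tle2 and Ctbp2 had log2 fold changes of 0.22 and 0.18 (edgeR, BH adjusted p = 0.22 and 0.38). Besides Nkd1, the 6 feedback or target genes included Nkd2, at 9.10 ± 0.799 and 10.4 ± 1.35 CPM (log2 0.19; edgeR, BH adjusted p = 0.61).

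**Figure D3:**
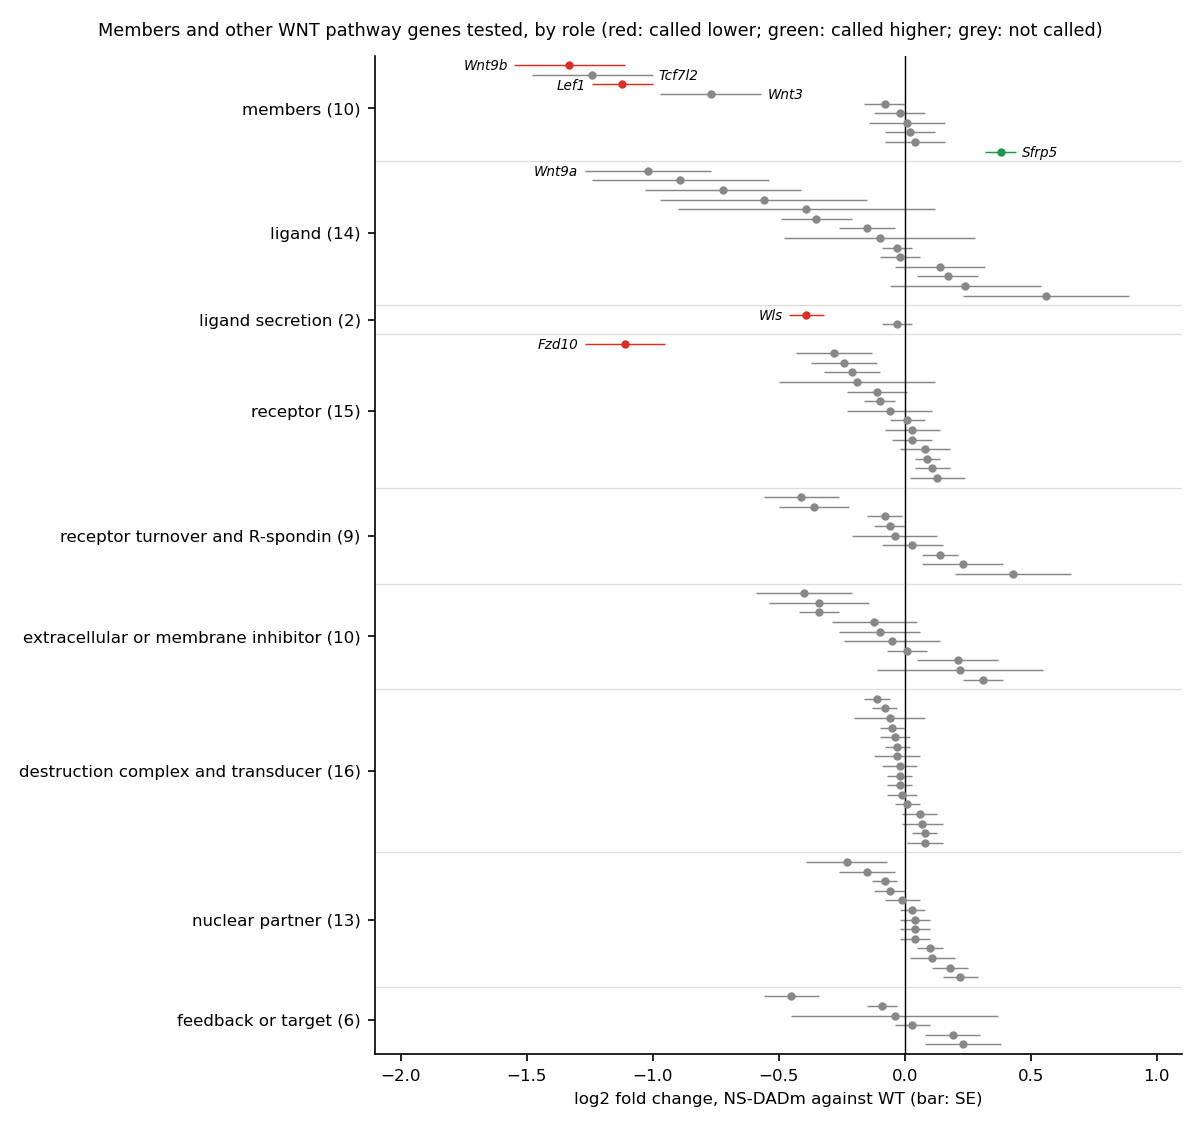
Log2 fold change of NS-DADm against WT with its SE (x axis) for the 10 members and the 85 other pathway genes tested, in rows by role. Wnt9b and Lef1 among the members, and Wls and Fzd10 among the others, are red (called lower), Sfrp5 is green (called higher), and the destruction complex genes lie within -0.11 and 0.08.

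Markers of the thalamus were lower in the same libraries as Lef1, Tcf7l2, Wnt9b and Wnt3. The list of 12 thalamus markers, which left out the members, summed to 1420, 976 and 1130 CPM across WT 1 to 3, against 791, 702 and 797 CPM across NS-DADm 1 to 3. The 12 genes had negative log2 fold changes (median -1.04), 4 of them past the threshold (edgeR), and for 11 the genotypes did not overlap. Over all tested genes, 0.573% were called lower and 8.93% were lower without overlap. The marker list was chosen with earlier results of these data known, so its counts are a description and no test. No marker of the list was at 0 in any library. Its most abundant genes, Adarb1, an RNA editing enzyme gene, and Amotl1, made up a large part of each sum. They differed less than the median of the list, at log2 fold changes of -0.44 ± 0.16 and -0.15 ± 0.06 (SE), and the groups of Amotl1 overlapped. Prkcd, which labels sensory thalamic nuclei, ranged between 63.7 and 163 CPM over WT, and between 13.3 and 30.2 CPM over NS-DADm libraries. Within WT, the marker sum was highest in WT 1 and lowest in WT 2. All 4 lower members had that same order of WT libraries, as had Fzd10, Wls, Wnt9a and Axin2, and as had 19.0% of all tested genes and 35.0% of those whose NS-DADm libraries were all lower. Of the 85 other pathway genes 28.2% had it, and 6 of the 10 whose NS-DADm libraries were all lower. The order was not particular to the thalamus list. Meningeal fibroblast markers summed to 74.1, 36.4 and 58.7 CPM across WT 1 to 3, and choroid plexus markers to 41.3, 36.7 and 37.6 CPM, which is the same order. Of the single choroid plexus markers, Kl, Folr1 and Otx2 had this order. Clic6, which led that sum, did not have it, nor did Ttr, Aqp1, Slc4a5 and Kcne2.

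With the mean log2 level of these markers as a covariate, 0 of the 10 members and 0 of the 85 other pathway genes were past the threshold (edgeR). Over all 15894 tested genes, calls fell from 104 to 12 with this covariate. Lef1 then had a log2 fold change of -0.47 ± 0.21 (SE), Tcf7l2 of -0.23 ± 0.30 and Wnt9b of -0.37 ± 0.38. Wnt3 turned to 0.30 ± 0.27, Wnt9a to 0.42 ± 0.32 and Axin2 to 0.35 ± 0.15. Fzd10 and Wls had -0.48 ± 0.33 and -0.14 ± 0.15, and Sfrp5 had 0.27 ± 0.15. The covariate ran from 5.43 to 6.24 over WT and from 4.46 to 4.85 over NS-DADm libraries, so genotype and marker level did not overlap and their parts cannot be told apart.

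**Figure D4:**
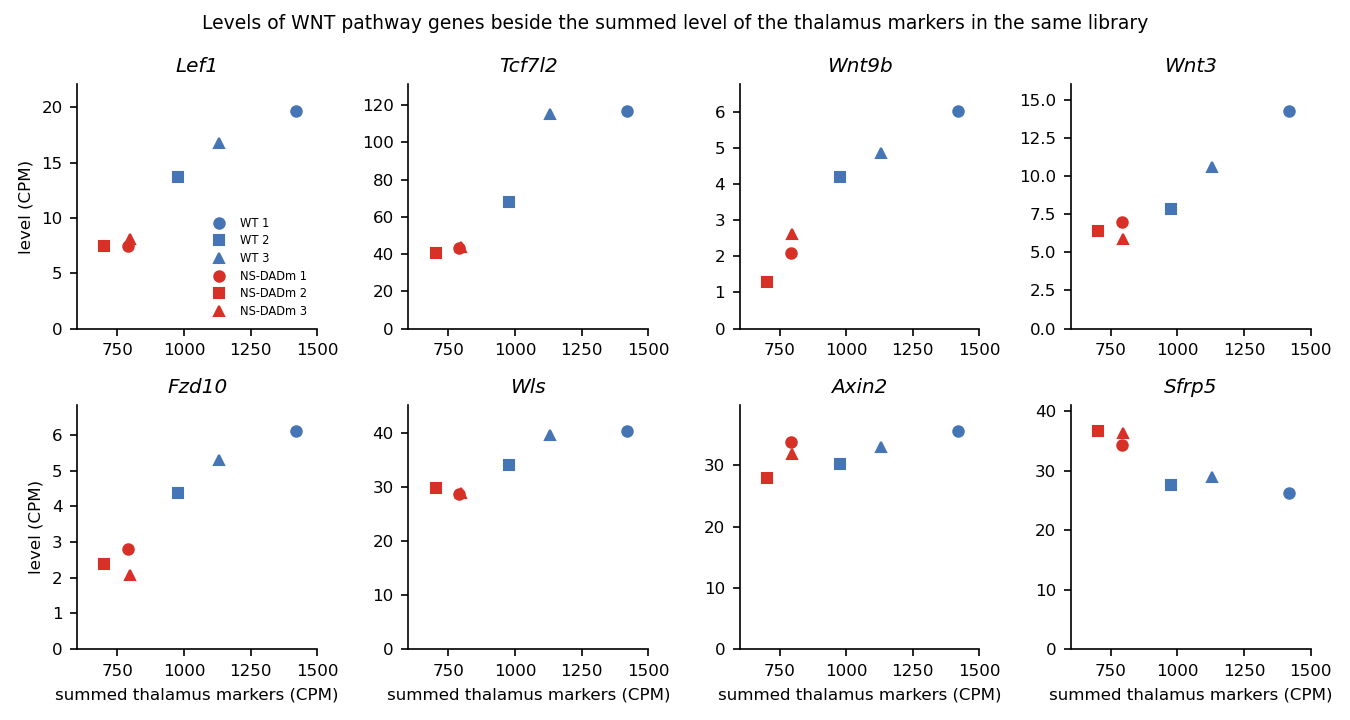
Level of 8 WNT pathway genes (y axis, CPM, from 0) beside the summed level of the 12 thalamus markers (x axis, CPM, not starting from 0) in each of the 6 libraries, blue for WT and red for NS-DADm. Lef1, Tcf7l2, Wnt9b, Wnt3, Fzd10, Wls and Axin2 are highest in WT 1, which has the highest marker sum of 1420 CPM. The genotypes overlap for Axin2. Sfrp5 is highest in NS-DADm 2, which has the lowest sum of 702 CPM. Over WT 1 to 3, Sfrp5 stands at 26.3, 27.5 and 28.9 CPM beside sums of 1420, 976 and 1130 CPM.

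The genes with profiles nearest to that of Lef1 over the 6 libraries were Plekhg1, Vav3, Rasl11a, Ntng1 and Mctp2. Their log2 levels, each centred on its own mean, differed from those of Lef1 by a root mean square of 0.09 to 0.12, against a median of 0.58 over the 13710 genes compared. Plekhg1 and Ntng1 belong to the thalamus list, which was also chosen with earlier results of these data known. Nearest to Tcf7l2 were Vav3, Cox6a2, Necab1, Prkch and Trpm6, at 0.12 to 0.14 against a median of 0.66. This likeness includes the difference between genotypes by which the members were picked.

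Markers of other neighbouring tissues and cell types were set beside these values. The 10 hypothalamus markers, among them Nkx2-1, Oxt and Avp, were present in each library and summed to 584 to 639 CPM over WT against 587 to 715 CPM over NS-DADm mice. Of these, 9 had positive log2 fold changes and 1 a negative one (median 0.19), and 0 were called. Otp was higher in NS-DADm libraries without overlap (log2 0.19 ± 0.08 SE). The 6 habenula markers summed to 26.4 to 29.0 CPM over WT against 24.5 to 26.2 CPM over NS-DADm mice, led by Nr4a2 and Chrna3, and the defining factor gene Pou4f1 had 0 to 8 reads. These sums did not overlap between the genotypes, and 4 of the 5 tested habenula markers had negative log2 fold changes. Nr4a2, which made up most of the sum, differed little (16.5 and 16.6 CPM), whereas Gpr151, a habenula receptor gene, stood at 2.63, 1.72 and 2.16 CPM across WT 1 to 3, against 1.23, 1.09 and 1.37 CPM across NS-DADm 1 to 3, without overlap (log2 -0.82 ± 0.21 SE; edgeR, BH adjusted p = 0.11). The 10 endothelial markers, led by Slco1a4 and Flt1, summed to 202 to 246 and 195 to 210 CPM. The 4 markers of newly formed oligodendrocytes, led by Gpr17 and Itpr2, summed to 103 to 122 and 110 to 118 CPM. The 6 astrocyte markers, led by Slc1a2 and Slc1a3, summed to 3110 to 3430 and 3130 to 3280 CPM. For the last 3 lists the ranges of the sums overlapped between the genotypes and 0 markers were called. Negative log2 fold changes were nonetheless in the majority, with 8 of 10 endothelial, 3 of 4 oligodendrocyte and 5 of 6 astrocyte markers. NS-DADm libraries were lower without overlap for Flt1 and Cdh5 of endothelium (log2 -0.26 and -0.24), Bmp4 of new oligodendrocytes (-0.57), and Aqp4 and Gja1 of astrocytes (-0.20 and -0.22). Meningeal fibroblast markers, led by Col1a2 and Dcn, were at 36.4 to 74.1 and 46.8 to 49.8 CPM. Choroid plexus markers, led by Clic6 and Kl, were at 36.7 to 41.3 and 34.7 to 45.9 CPM, and tanycyte and ependymal markers, led by Col23a1 and Foxj1, at 72.8 to 78.2 and 78.0 to 87.4 CPM. Log2 fold changes were negative for 6 of 8 meningeal markers, and positive for 5 of 6 tested markers in each of the other 2 lists. Kl, Kcne2 and Foxj1 were higher in NS-DADm libraries without overlap (log2 0.20, 0.79 and 0.29), Kcne2 on 5 to 12 reads. Ttr, on 10 to 31 reads, had the largest difference of the tested choroid plexus markers, with overlapping groups (log2 0.93 ± 0.34 SE; edgeR, BH adjusted p = 0.31). Clic6 and Kl made up most of the choroid plexus sum, and Aqp1 and Slc4a5 were too low to test. The part of these tissues and cell types in the members' differences was not tested.

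Anterior pituitary markers, led by Gh and Prl, ranged from 39.9 to 111 CPM as a sum over WT libraries, and stood at 203, 2020 and 199 CPM across NS-DADm 1 to 3, with NS-DADm 2 far above the rest. The sums did not overlap between the genotypes. The 7 tested markers had positive log2 fold changes (median 2.73), and 0 were called. Of the 10 markers listed, 4 were higher in NS-DADm libraries without overlap, against 7.86% of all tested genes. Of the members, Sfrp5, Sfrp1 and Tcf7l1 had their highest level in NS-DADm 2 and Tcf7l2, Wnt9b and Axin2 their lowest. Without NS-DADm 2 the log2 fold change was 0.36 for Sfrp5, -1.11 for Lef1, and -1.09 for Wnt9b, and 0 members were called (edgeR, 5 calls over all genes). The part of pituitary RNA in these values was not tested.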

How the data were processed

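The deposited values were raw read counts per gene, 1 table per mouse, with no normalization by the authors. TopHat2 2.0.9, HTSeq and the mm10 build are named, per the submitters' processing notes; for annotation and strand setting the sources used here give nothing. The last 5 rows of each table (unassigned reads) were left out. Libraries held 24.2 M to 27.6 M reads on genes (1e6), so 1 read was 0.0362 to 0.0409 CPM; depth limits low genes such as Wnt9b. Low genes were removed by filterByExpr, TMM factors were applied and genotypes were compared in edgeR 4.0.16 (R 4.3.3; quasi-likelihood F test, BH over 15894 genes). Alternatives used DESeq2 1.42.0, limma 3.58.1 and others given with their effects. Log2 CPM used a prior count of 2. Positions and exon lengths came from GENCODE of the same build, start windows from RefSeq. BLAST 2.17.0 was run with 1 transcript per member, and only the longest match to another gene was kept. For Lef1, Tcf7l1, Axin2 and Sfrp2 that match was a gene overlapping the member, and shorter matches were not examined. The other members had no match. Without strand, antisense reads cannot be told apart.

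The members and gene lists were chosen with earlier results of these data known; the other pathway genes were listed by role. The genes named are the 10 members, called pathway genes, the 2 smallest p per role, 5 nearest profiles (at least 1 CPM, no members or predicted genes) and the 2 most abundant markers per list. Prkcd, Pou4f1, Gpr151, Cdh5, Bmp4, Aqp4, Gja1, Nkx2-1, Otp, Kcne2, Ttr, Folr1, Otx2, Aqp1, Slc4a5, Wnt3a and the ligands' neighbours were added after their values were seen. Figures used matplotlib 3.10.9.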

Additional observations from a re-analysis of the deposited data

How the results depend on the processing

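Over all genes, 104 calls became 203 with no count filter, 282 with DESeq2, 12 with the thalamus marker covariate and 5 (without NS-DADm 2) to 312 (without WT 1) with single libraries left out (262 without WT 2, 10 without WT 3, 8 without NS-DADm 3). Members called lower numbered 2, with 4 under DESeq2, 0 with the covariate and 0 to 4 without single libraries; members called higher numbered 1, with 0 under the covariate and 0 to 1 without single libraries. Other pathway genes called lower numbered 2, with 4 under no filter, 5 under DESeq2, 0 with the covariate and 0 to 4 without single libraries; those called higher numbered 0, with 1 under DESeq2 and 0 to 1 without single libraries. Without WT 3, NS-DADm 2 or NS-DADm 3, Lef1 was called in 2 of the 3 fits and Wnt9b and Sfrp5 in 0. The cause of these shifts was not tested.

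Lef1, Tcf7l2, Wnt9b and Sfrp5 kept their direction in all 14 alternative fits. The covariate reversed the sign of Tcf7l1 (-0.21 ± 0.29 SE), Axin2 (0.35 ± 0.15), Wnt3 (0.30 ± 0.27), Sfrp1 (-0.23 ± 0.23), Sfrp2 (0.07 ± 0.24) and Wnt9a (0.42 ± 0.32). It also reversed Wnt4 (0.28 ± 0.24), Porcn (0.04 ± 0.14), Lgr6 (0.20 ± 0.28), Ctnnb1 (0.03 ± 0.10), Ctbp2 (-0.10 ± 0.15) and Nkd1 (0.15 ± 0.18). With the covariate 0 of these were called. Its values did not overlap between the genotypes, so these signs cannot be assigned to either. Without single libraries the log2 fold changes ranged from -0.04 to 0.13 for Tcf7l1, -0.05 to 0.09 for Sfrp1, -0.06 to 0.04 for Sfrp2, -0.19 to 0.12 for Frzb and -0.05 to 0.007 for Porcn. Frzb was -0.00033 with no filter, -0.02 with limma voom and -0.004 with a replicate block.

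Replicate numbers are shared between the genotypes, and same-numbered libraries deviated together with correlations of 0.13, 0.09 and -0.03. WT 1 and NS-DADm 1 correlated best with each other, as did WT 2 and NS-DADm 2, whereas WT 3 and NS-DADm 3 did not. The numbers were not taken as pairs in the main fit, and these small correlations do not show whether they mark pairs. With the replicate block, 409 genes, 3 members lower, 1 member higher, 5 other pathway genes lower and 1 higher were called; the block added Wnt3 (log2 -0.74) among the members and Wnt9a, Apcdd1, Nkd1 and Dkk3 among the others.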
